A study of Mus musculus with 24 samples.

Results

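The transcripts of 10 genes of glycolysis and lactate transport were followed in the CA1 region of the mouse hippocampus after status epilepticus (SE), a prolonged seizure induced with pilocarpine. The genes were chosen by name, as the rows of the count table whose GENCODE symbol is Hk1, Hk2, Pfkp, Pfkfb3, Aldoa, Pgk1, Pkm, Ldha, Ldhb or Slc16a1, and these are 10 of the 18647 genes in the table. All 10 passed the filter on low counts that 18153 genes passed. Messenger RNA was sequenced from microdissected CA1 tissue in 24 libraries, 3 for each of 8 groups. The SE groups were taken at 5 times after SE (6, 12, 24, 36 and 72 h), and the control groups (Ctr) matched 3 of these (12, 36 and 72 h). No control group was taken at 6 or 24 h, so the SE 6 h and SE 24 h groups were compared with the equally weighted mean of the 3 control groups.

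The animals were adult C57Bl/6N mice of at least 60 days and 20 g. All received 1 mg/kg scopolamine methyl nitrate, a blocker of peripheral muscarinic receptors, 20 min before 335 mg/kg pilocarpine in the SE groups or saline in the controls. Diazepam, a benzodiazepine that ends the seizure, was given at 4 mg/kg to all animals, 40 min after SE onset in the SE groups, so it is shared by both arms. Only mice that went through SE entered the SE groups. CA1 was cut by hand from 400 µm slices and holds neurons, glia and vessels together. The labels do not say whether the 3 libraries of a group came from separate animals, so each p-value measures the spread between these libraries.

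Glycolysis splits glucose into pyruvate in the cytosol. Hexokinases trap glucose in the cell, phosphofructokinase commits it to the pathway, and lactate dehydrogenase converts pyruvate and lactate into each other, after which monocarboxylate transporters carry lactate across membranes. In the brain, astrocytes are known as a site of glycolysis and lactate release, neurons take up lactate and glucose, and microglia raise glycolysis when they become reactive.

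The libraries held between 2663936 and 30133731 counts (median 13521590), and the Ctr 72 h group was the shallowest at 2663936 to 11680209. Levels are given as CPM (counts scaled to a common library total) after TMM scaling. The 5 CA1 pyramidal cell markers (Wfs1, Fibcd1, Pou3f1, Man1a and Dcn) were detected in every library, with a summed level of 369 to 1135 CPM. The Ctr 36 h libraries were highest, at 1085 to 1135 CPM, beside at most 857 CPM (Ctr 12 h) in the other groups. In 6 libraries the summed level of 9 sensory ganglion genes was over 100 CPM: 1674 in Ctr 72 h replicate 2, 314 in SE 6 h replicate 3, 650 in SE 12 h replicate 1, 798 in SE 36 h replicate 3, and 893 and 458 in SE 72 h replicates 1 and 2. The other libraries were at 74.6 CPM or less. Without these 6 libraries, the number of the 10 genes called in each comparison of SE with control was the same as with them (3, 3, 6, 4 and 2 in the order of the 5 times).

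In the controls the 10 genes covered a wide range of levels. Scaled to the length of the canonical transcript, which allows genes to be set side by side, the mean control level was 906 CPM per kb for Aldoa (SD 99.4, n = 9), 499 for Pkm (SD 36), 205 for Ldhb (SD 21.3), 188 for Ldha (SD 27.2) and 118 for Hk1 (SD 11.3). It was 58.6 for Pgk1 (SD 9.66), 58 for Pfkp (SD 8.8), 11.1 for Slc16a1 (SD 1.46), 7.56 for Pfkfb3 (SD 1.83) and 0.75 for Hk2 (SD 0.325). Within this order Ldhb and Ldha, and Pgk1 and Pfkp, did not differ beyond their spread. The SE libraries left the control range in different directions. All 15 SE libraries were above the highest of the 9 control libraries for Pfkfb3, 14 for Hk2, 14 for Pfkp, 10 for Slc16a1, 8 for Ldha and 6 for Pgk1, whereas 12 were below the lowest control for Ldhb. For Hk1, 9 were below the lowest control and 0 above the highest, for Aldoa 8 and 0, and for Pkm 5 were above and 5 below.

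**Figure D1:**
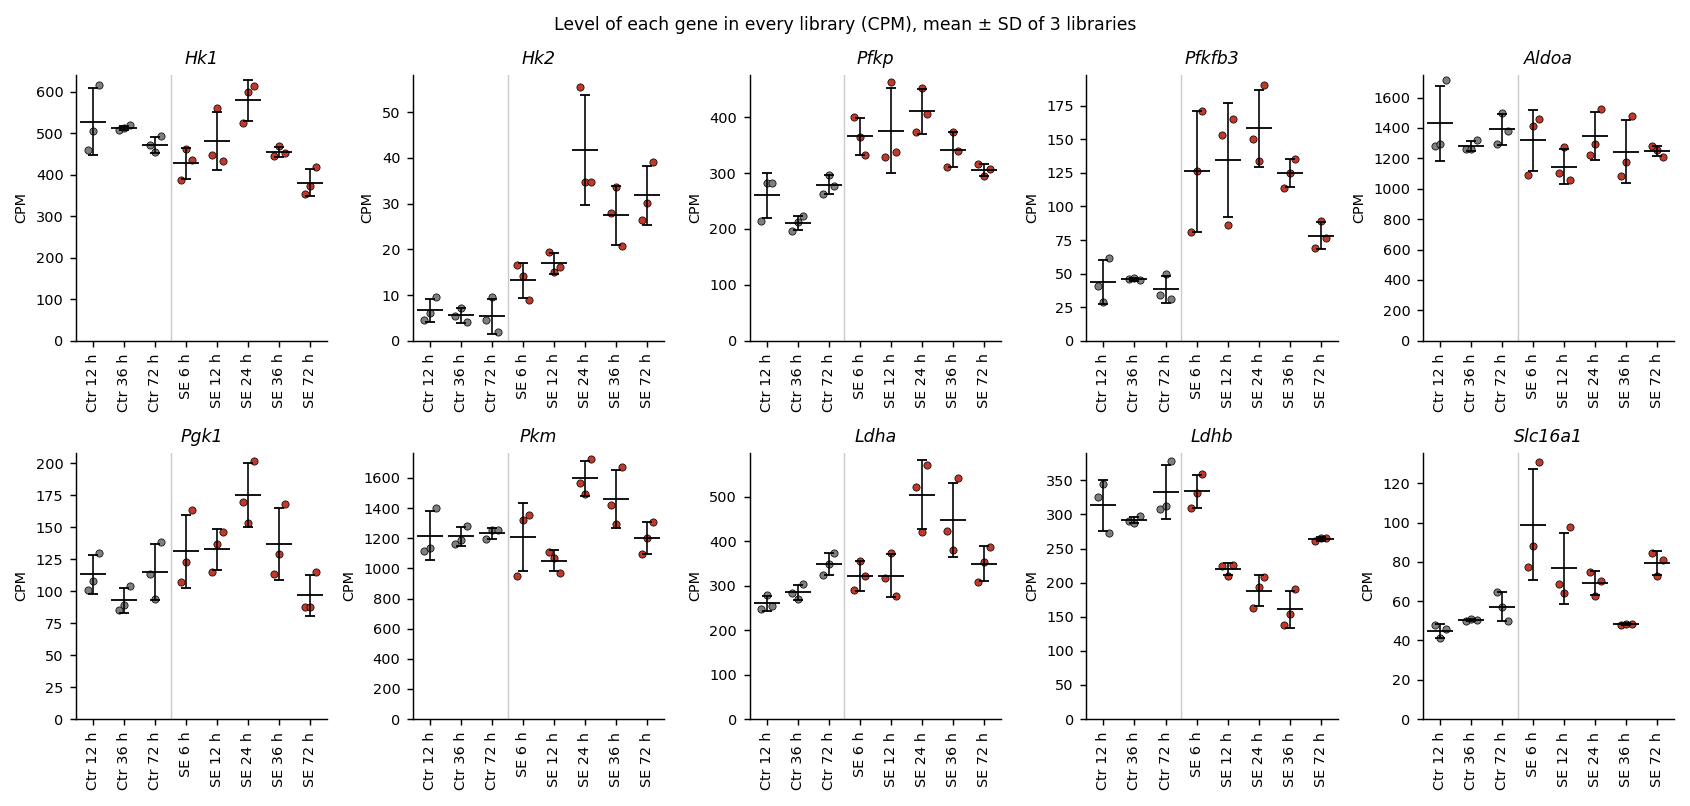
TMM-scaled CPM of each of the 10 genes in each of the 24 libraries, by group, with 1 point per library (grey for control, red for SE) and bars for the group mean ± SD (n = 3). The group means of Hk2 and Pfkfb3 lie above those of the controls at all 5 times, and Ldhb is lowest in SE 24 h (163 to 208 CPM) and SE 36 h (138 to 191 CPM).

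A gene was called when edgeR's quasi-likelihood test gave a p, adjusted by Benjamini-Hochberg over all genes tested, of at most 0.05 and the absolute log2 fold change (log2FC) was at least 0.66, or at least 1 between SE times. At 6 h after SE, 3 of the 10 genes were called up (Hk2, Pfkfb3 and Slc16a1) and none down, beside 22% of all genes tested called in either direction (15.8% up and 6.21% down). At 12 h, 3 were called up (the same 3) and none down, beside 25.2% of all genes (13.9% up and 11.4% down). At 24 h, 5 were called up (Hk2, Pfkfb3, Pfkp, Pgk1 and Ldha) and 1 down (Ldhb), beside 24.1% of all genes (14.9% up and 9.21% down). At 36 h, 3 were called up (Hk2, Pfkfb3 and Pfkp) and 1 down (Ldhb), beside 21.6% (12.7% up and 8.91% down), and at 72 h 2 were called up (Hk2 and Pfkfb3) and none down, beside 19.4% (15.2% up and 4.21% down). With counts this small, the shares called in either direction at 6, 12 and 72 h lie close to those of all genes. The 10 genes were chosen with earlier results of these data known, so the larger shares at 24 and 36 h cannot show an excess. By p alone, 4, 5, 8, 6 and 4 of the 10 genes passed at the 5 times in order, beside 39.9%, 38.5%, 41.3%, 31.7% and 28.1% of all genes. The median log2FC of the 10 genes was 0.21, 0.27, 0.58, 0.42 and -0.01 in the same order, beside 0.06, 0.01, 0.04, 0.00 and 0.10 for all genes tested. The 5 comparisons share control libraries, those at 6 and 24 h with all the others, so their lists of called genes are not independent.

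**Figure D2:**
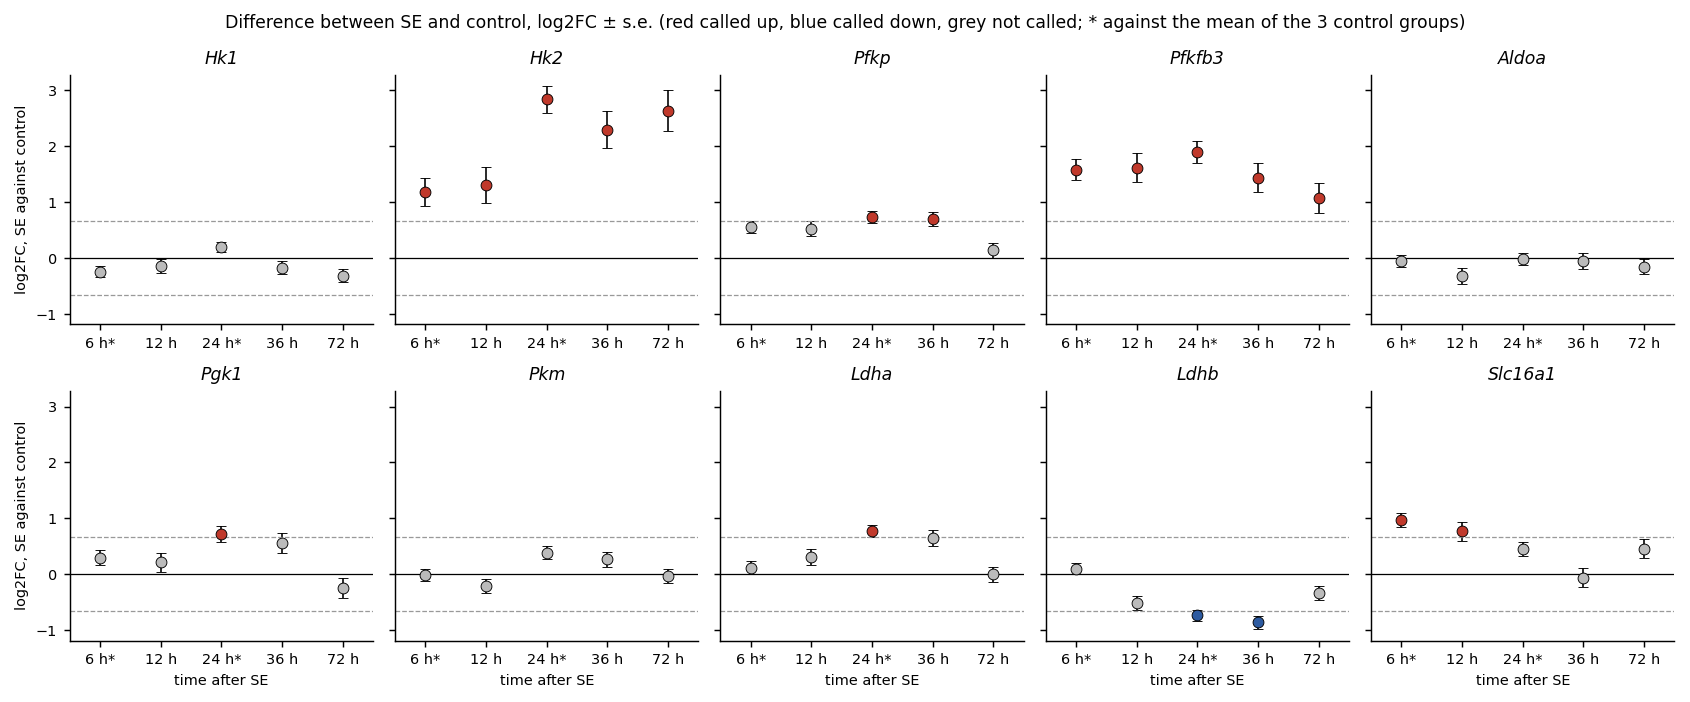
log2FC ± s.e. of the 10 genes after SE against control at each time, with red for genes called up, blue for called down and grey for not called. Dashed lines mark the size threshold of 0.66, and an asterisk marks a comparison with the mean of the 3 control groups. Hk2 reaches 2.84 and Pfkfb3 1.90 at 24 h, and Ldhb -0.86 at 36 h.

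The promoters of Hk2, Pgk1 and Ldha are printed here because glycolytic genes are the textbook targets of the hypoxia-inducible factor. Its response element has the core ACGTG or GCGTG. These 3 are among the 5 genes called up at 24 h, and the windows of the other 2 (Pfkp and Pfkfb3) are only counted below. Each sequence is the 250 bases before the start of the canonical transcript, read 5′ to 3′ on the strand of the gene from GRCm39 with GENCODE M39. Capitals mark ACGTG or GCGTG on either strand, so CACGT and CACGC are their reverse strand, and CACGTG counts on both strands. Hk2 is at chr6:82751453-82751702 (minus strand), Pgk1 at chrX:105230456-105230705 (plus strand) and Ldha at chr7:46495013-46495262 (plus strand).
Hk2: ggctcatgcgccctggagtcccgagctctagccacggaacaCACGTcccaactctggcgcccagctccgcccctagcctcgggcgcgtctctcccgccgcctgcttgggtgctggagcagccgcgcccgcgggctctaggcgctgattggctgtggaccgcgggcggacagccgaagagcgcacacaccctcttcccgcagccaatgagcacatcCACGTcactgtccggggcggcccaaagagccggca
Pgk1: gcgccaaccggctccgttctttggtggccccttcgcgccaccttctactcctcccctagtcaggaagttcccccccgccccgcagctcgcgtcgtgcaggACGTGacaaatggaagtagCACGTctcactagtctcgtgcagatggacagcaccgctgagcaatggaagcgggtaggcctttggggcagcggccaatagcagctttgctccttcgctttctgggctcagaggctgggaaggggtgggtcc
Ldha: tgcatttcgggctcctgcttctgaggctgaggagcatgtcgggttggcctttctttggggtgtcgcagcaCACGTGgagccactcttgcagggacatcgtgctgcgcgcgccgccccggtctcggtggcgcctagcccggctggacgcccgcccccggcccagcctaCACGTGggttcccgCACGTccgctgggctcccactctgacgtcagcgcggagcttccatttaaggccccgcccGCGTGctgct
The Ldha window held 4 separate stretches in capitals, the nearest 5 bases before the start. Hk2 and Pgk1 held 2 each, the nearest at 30 and 126 bases, as did Slc16a1, the nearest at 25 bases. Hk1, Pfkp and Aldoa held 1 each, at 70, 148 and 121 bases, and the windows of Pfkfb3 and Pkm held none. Over the windows of 9 of the 10 genes (all but Ldhb), ACGTG occurred in 6 of 9 and in 19.8% of the 15431 windows of protein-coding genes in the count table. GCGTG occurred in 3 of 9 and in 38.8%, and either motif in 7 of 9 and in 49.9%. The GC content of the 9 windows was 51.6 to 70.4%, and the shares were not matched for it. The canonical starts of several genes, among them Hk1 and Pfkfb3, lie inside the annotated gene, and windows before other starts were not read. A match is only a run of these letters in the window, and its absence says nothing about the factor elsewhere.

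Of the hexokinases, which phosphorylate glucose in the first step, Hk2, an inducible form that is low in the healthy brain, rose at every time. Its control libraries held 4.45, 6.08 and 9.47 CPM at 12 h, 5.32, 7.2 and 4.11 CPM at 36 h, and 4.56, 9.55 and 1.87 CPM at 72 h. The last of these is 5 counts in the shallowest library. After SE, Hk2 was at 16.5, 14.1 and 9 CPM at 6 h, 19.5, 15.1 and 16.1 CPM at 12 h, 55.5, 34.8 and 34.8 CPM at 24 h, 27.9, 33.6 and 20.7 CPM at 36 h, and 26.3, 30.1 and 39 CPM at 72 h. Only SE 6 h replicate 3 fell within the control range. The log2FC was 1.18 at 6 h (s.e. 0.25, adjusted p = 0.00105), 1.31 at 12 h (s.e. 0.32, adjusted p = 0.00289), 2.84 at 24 h (s.e. 0.24, adjusted p = 1.04e-08), 2.30 at 36 h (s.e. 0.33, adjusted p = 2.1e-05) and 2.64 at 72 h (s.e. 0.36, adjusted p = 1.44e-05). These are folds of 2.27, 2.48, 7.15, 4.94 and 6.25. Without Ctr 72 h replicate 2 the log2FC at 72 h was 3.11 (adjusted p = 2.48e-05). Without the 6 libraries with sensory ganglion genes it was 3.36, with only replicate 3, the highest SE 72 h library, left after SE.

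Hk1, the constitutive hexokinase of the brain, was called at no time. It was at 454 to 617 CPM in the 9 controls and at 354 to 614 CPM after SE, where the 3 SE 72 h libraries (354, 372 and 418 CPM) were below all 3 of their own controls (471, 454 and 493 CPM). Its log2FC was -0.31 at 72 h (s.e. 0.12, adjusted p = 0.0535) and 0.20 at 24 h (s.e. 0.09, adjusted p = 0.0968). The ratio of Hk2 to Hk1 counts, which does not depend on the scaling between libraries, was 0.0123 ± 0.00287 (SD, n = 3) in Ctr 12 h, 0.0108 ± 0.0031 in Ctr 36 h and 0.0115 ± 0.00875 in Ctr 72 h. It was 0.0313 ± 0.011 in SE 6 h, 0.0358 ± 0.00832 in SE 12 h, 0.0735 ± 0.0281 in SE 24 h, 0.06 ± 0.013 in SE 36 h and 0.0828 ± 0.00963 in SE 72 h. Hk2 thus remained the minor form by counts in every library, and the ranges of the control libraries (0.0038 to 0.021) and the SE 6 h libraries (0.0207 to 0.0426) only just overlapped.

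These are values of bulk tissue, in which a change in the number of cells of a type and a change in the RNA per cell cannot be told apart. The summed level of 10 microglia markers was 370 to 456 CPM in controls, 292 to 344 CPM in SE 6 h, 328 to 476 CPM in SE 12 h, 586 to 793 CPM in SE 24 h, 801 to 910 CPM in SE 36 h and 1693 to 2434 CPM in SE 72 h. Of the 10 markers, 1, 2, 5, 7 and 10 were called up and 5, 2, 1, 1 and 0 down at the 5 times in order. The mean level of Hk2 was 41.7 CPM in SE 24 h, 27.4 CPM in SE 36 h and 31.8 CPM in SE 72 h. It was not called from 24 to 36 h (edgeR's adjusted p = 0.342) or from 36 to 72 h (edgeR's adjusted p = 0.706). The astrocyte sum (8 markers) lay between 3833 and 5045 CPM in controls, and between 5768 and 6465 CPM in SE 6 h. SE 12 h libraries reached 5680 to 8311 CPM and SE 24 h libraries 5311 to 6986 CPM. For SE 36 h the range was 6507 to 8896 CPM, and for SE 72 h 11920 to 13566 CPM. Its members did not all rise. From 6 to 72 h, 2, 3, 3, 4 and 4 passed as up, whereas 0, 1, 3, 3 and 0 passed as down. The median log2FC of the 8 was -0.12 at 24 h. Gfap alone spanned 217 to 8779 CPM over the 24 libraries. The neuron sum (10 markers) was 11766 to 18517 CPM in controls and 8334 to 9010 CPM in SE 72 h. No marker of these 3 lists was at 0 in any library. The summed level of 4 dentate granule cell markers was 66.4 to 134 CPM in Ctr 12 h. It was 46.7 to 53 CPM in Ctr 36 h and 43.5 to 55.4 CPM in Ctr 72 h. At 6, 12 and 24 h after SE it was 62 to 112, 32.1 to 149 and 44.2 to 63.8 CPM. At 36 and 72 h after SE it was 54.1 to 133 and 67.9 to 307 CPM. The sum of red blood cell genes was 49.4 to 114 CPM in Ctr 72 h and 10.5 to 50.4 CPM elsewhere. Those of choroid plexus and infiltrating leukocyte markers were at most 37.7 and 20.6 CPM. The part of cell composition in the changes of the 10 genes was not tested.

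**Figure D3:**
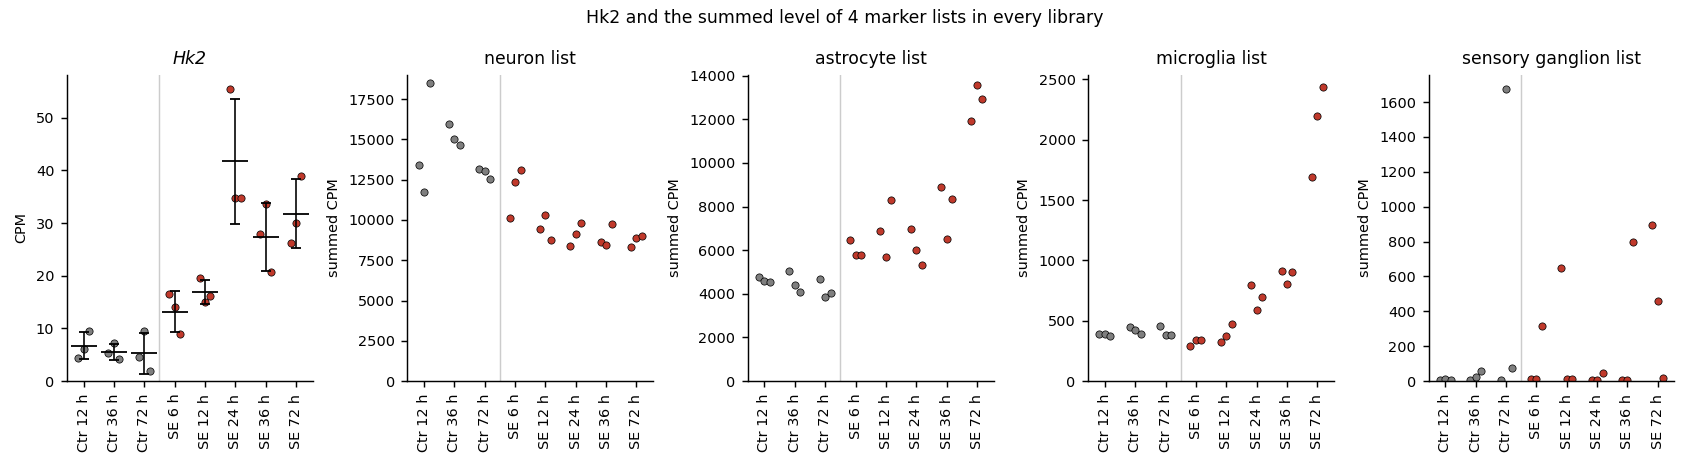
CPM of Hk2 (with the group mean ± SD, n = 3) and summed CPM of the neuron, astrocyte, microglia and sensory ganglion marker lists in each library, by group, on linear axes with 1 point per library. The microglia and astrocyte sums are highest in the 3 SE 72 h libraries, and the sensory ganglion sum is highest in Ctr 72 h replicate 2 (1674 CPM).

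At the committed step, Pfkp, a subunit of phosphofructokinase abundant in brain, rose at 24 and 36 h. Its libraries held 214, 283 and 283 CPM in Ctr 12 h, 197, 213 and 223 CPM in Ctr 36 h and 263, 297 and 277 CPM in Ctr 72 h. After SE they held 400, 364 and 333 CPM at 6 h, 328, 463 and 337 CPM at 12 h, 373, 452 and 406 CPM at 24 h, 311, 374 and 340 CPM at 36 h and 316, 294 and 308 CPM at 72 h. All SE libraries except SE 72 h replicate 2 were above every control. The log2FC was 0.73 at 24 h (s.e. 0.11, adjusted p = 1.65e-05) and 0.70 at 36 h (s.e. 0.13, adjusted p = 0.000506), and it passed the p but not the size threshold at 6 h (0.56, s.e. 0.11, adjusted p = 0.000348) and 12 h (0.53, s.e. 0.13, adjusted p = 0.00381). At 72 h it was 0.14 (s.e. 0.13, adjusted p = 0.489). The value fell under the size threshold at 24 h without SE 24 h replicate 2 (0.65), and at 36 h without Ctr 36 h replicate 1 (0.65), without SE 36 h replicate 2 (0.63) or against the mean of the 3 control groups (0.46). Pfkp shares 11.1% of its exon bases with Pitrm1 on the opposite strand, and counting ignored the strand. The counts given to Pitrm1 were 11.5 to 18.1% of those of Pfkp, which does not show how reads over the shared bases were assigned.

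Pfkfb3 makes fructose-2,6-bisphosphate, the strongest activator of phosphofructokinase. It rose at all 5 times. Control libraries held 40.9, 28.6 and 61.6 CPM at 12 h, 45.9, 47.1 and 44.9 CPM at 36 h, and 34, 50 and 31.1 CPM at 72 h. After SE the libraries held 81.2, 126 and 171 CPM at 6 h, 153, 86.4 and 165 CPM at 12 h, 150, 134 and 190 CPM at 24 h, 114, 125 and 135 CPM at 36 h, and 69.1, 89.1 and 76.6 CPM at 72 h. No SE library overlapped any control. The log2FC was 1.58 at 6 h (s.e. 0.19, adjusted p = 3.62e-06), 1.62 at 12 h (s.e. 0.26, adjusted p = 7.74e-05), 1.90 at 24 h (s.e. 0.19, adjusted p = 1.69e-07), 1.44 at 36 h (s.e. 0.26, adjusted p = 0.000256) and 1.07 at 72 h (s.e. 0.27, adjusted p = 0.00545), or folds of 2.99, 3.07, 3.73, 2.71 and 2.09. The microglia sum was 292 to 344 CPM in SE 6 h, 328 to 476 CPM in SE 12 h and 586 to 793 CPM in SE 24 h. It was 801 to 910 CPM in SE 36 h and 1693 to 2434 CPM in SE 72 h. The astrocyte sum was 5768 to 6465 CPM in SE 6 h and 5680 to 8311 CPM in SE 12 h, beside 3833 to 5045 CPM in controls. The part of these cells in the level of Pfkfb3 was not tested.

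In the middle of the pathway, Aldoa, the aldolase that splits fructose-1,6-bisphosphate, was called at no time. It was at 1264 to 1717 CPM in controls (median 1296) and 1055 to 1527 CPM after SE (median 1255), and its log2FC lay between -0.32 at 12 h (s.e. 0.14, adjusted p = 0.0763) and -0.02 at 24 h (s.e. 0.11, adjusted p = 0.915). Aldoa shares 43.1% of its exon bases with Gm57854 on the same strand, whose counts were at most 0.143% of its own. These counts do not show how reads over the shared bases were assigned, or how many were left out.

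Pgk1, phosphoglycerate kinase, makes the first ATP of the pathway. It rose at 24 h, to 170, 153 and 202 CPM, against 85.5 to 138 CPM over the 9 controls, a log2FC of 0.72 (s.e. 0.14, adjusted p = 0.00032) or 1.65-fold. At 36 h its libraries held 113, 129 and 168 CPM beside 85.5, 89.1 and 104 CPM in Ctr 36 h. That log2FC of 0.56 (s.e. 0.18, adjusted p = 0.0191) passed the p but not the size threshold. It was 0.30 at 6 h (adjusted p = 0.0943), 0.22 at 12 h (adjusted p = 0.338) and -0.24 at 72 h (adjusted p = 0.341). Without SE 24 h replicate 3 the value at 24 h was 0.60, under the size threshold. With an assumed batch, the range into which the number in each sample label fell, as a factor it was 0.35 (adjusted p = 0.0948).

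Pkm, pyruvate kinase, makes pyruvate in the last step. It was at 1115 to 1403 CPM in controls (median 1192). The 3 SE 24 h libraries (1566, 1496 and 1728 CPM) were above all controls, and the 3 SE 12 h libraries (1106, 1072 and 971 CPM) below all of them. At 24 h its log2FC of 0.39 (s.e. 0.11, adjusted p = 0.00686) passed the p but not the size threshold, and at 36 h it was 0.27 (s.e. 0.13, adjusted p = 0.137). The counts do not separate the M1 and M2 transcripts of Pkm. Pkm shares 23.5% of its exon bases with Gm49759, a model on the same strand with 1.11 to 2.28% of its counts. Reads over the shared bases may be missing from both.

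Lactate dehydrogenase is a tetramer of A subunits (Ldha), which favour the making of lactate, and B subunits (Ldhb), which favour its use. The transcripts of both subunits moved in opposite directions at 24 h. Ldha was at 248, 280 and 254 CPM in Ctr 12 h, 284, 269 and 303 CPM in Ctr 36 h and 323, 349 and 374 CPM in Ctr 72 h. After SE it was at 289, 356 and 321 CPM at 6 h, 317, 374 and 277 CPM at 12 h, 521, 421 and 572 CPM at 24 h, 422, 379 and 541 CPM at 36 h, and 309, 353 and 386 CPM at 72 h. All SE 24 h and SE 36 h libraries were above every control. Ldha rose at 24 h by a log2FC of 0.77 (s.e. 0.11, adjusted p = 1.95e-05), a fold of 1.71, and of 0.60 with the label range as a factor. At 36 h its log2FC was 0.65 (s.e. 0.14, adjusted p = 0.00175), just under the size threshold and past it with DESeq2 (0.67). Without the 6 libraries with sensory ganglion genes it was 0.49 (edgeR's adjusted p = 0.0221). At 6, 12 and 72 h it was 0.12 (adjusted p = 0.429), 0.31 (adjusted p = 0.098) and 0.00 (adjusted p = 0.984).

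Ldhb was at 325, 344 and 272 CPM in Ctr 12 h, 290, 288 and 297 CPM in Ctr 36 h and 308, 312 and 378 CPM in Ctr 72 h. After SE it was at 310, 332 and 359 CPM at 6 h, 224, 210 and 226 CPM at 12 h, 163, 193 and 208 CPM at 24 h, 138, 154 and 191 CPM at 36 h, and 261, 266 and 265 CPM at 72 h. From 12 h on, all 12 SE libraries were below every control. Ldhb fell at 24 h (log2FC -0.73, s.e. 0.10, adjusted p = 1.41e-05) and 36 h (log2FC -0.86, s.e. 0.12, adjusted p = 2.47e-05), to 0.603 and 0.553 of the control level. Its log2FC of -0.51 at 12 h (s.e. 0.12, adjusted p = 0.00261) and -0.33 at 72 h (s.e. 0.12, adjusted p = 0.049) passed the p threshold only, and at 6 h it was 0.10 (adjusted p = 0.466). Without SE 24 h replicate 1 the value at 24 h was -0.64. Without the 6 libraries with sensory ganglion genes, which leaves only replicate 3 in SE 72 h, the value at 72 h was -0.37.

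The ratio of Ldha to Ldhb counts within a library carried both changes. It was 0.836 ± 0.0869 (SD, n = 3) in Ctr 12 h, 0.977 ± 0.0451 in Ctr 36 h and 1.05 ± 0.0655 in Ctr 72 h, with a range of 0.762 to 1.12 over the 9 libraries. It was 0.966 ± 0.0931 in SE 6 h, 1.47 ± 0.282 in SE 12 h, 2.71 ± 0.507 in SE 24 h, 2.78 ± 0.304 in SE 36 h and 1.32 ± 0.136 in SE 72 h. The SE 6 h libraries lay within the control range, and all 12 later SE libraries lay above it. No p is given for a ratio of genes chosen with results known. The neuron sum was 11766 to 18517 CPM in controls, 10117 to 13078 CPM in SE 6 h and 8733 to 10303 CPM in SE 12 h. It was 8388 to 9797 CPM in SE 24 h, 8439 to 9738 CPM in SE 36 h and 8334 to 9010 CPM in SE 72 h. Its part in the ratio was not tested.

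**Figure D4:**
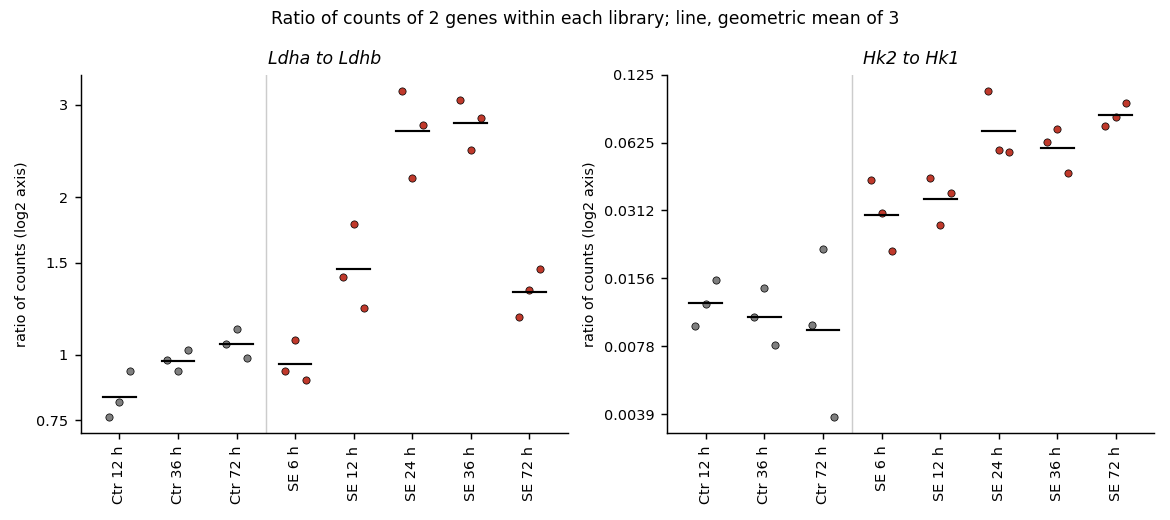
Ratios of Ldha to Ldhb and of Hk2 to Hk1 counts in each library, by group, on log2 axes, with 1 point per library and a line at the geometric mean of the 3. The Ldha to Ldhb ratio is 0.762 to 1.12 in the 9 controls and 2.18 to 3.19 in the SE 24 h and 36 h libraries, and the Hk2 to Hk1 ratio is still 0.0742 to 0.0932 at 72 h.

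Slc16a1 encodes the monocarboxylate transporter MCT1, which carries lactate and ketone bodies and is known from vessels, astrocytes and oligodendrocytes. It was at 47.9, 41.1 and 46 CPM in Ctr 12 h, 50.1, 50.9 and 50.3 CPM in Ctr 36 h and 64.9, 57 and 49.9 CPM in Ctr 72 h. After SE it was at 77.6, 88.3 and 131 CPM at 6 h, 68.5, 64.1 and 97.6 CPM at 12 h, 74.9, 62.4 and 70.4 CPM at 24 h, 47.9, 48.5 and 48.6 CPM at 36 h, and 84.7, 73 and 80.8 CPM at 72 h. All 3 libraries of SE 6 h and of SE 72 h were above the highest control library, as were 2 of SE 12 h and 2 of SE 24 h, but 0 of SE 36 h. Slc16a1 rose at 6 h (log2FC 0.97, s.e. 0.13, adjusted p = 1.04e-05) and 12 h (0.77, s.e. 0.17, adjusted p = 0.00136), or 1.95-fold and 1.7-fold. Its log2FC of 0.45 at 24 h (s.e. 0.13, adjusted p = 0.0118) and 0.46 at 72 h (s.e. 0.17, adjusted p = 0.0484) passed the p threshold only, and at 36 h it was -0.06 (s.e. 0.17, adjusted p = 0.818). The 12 h value was under the size threshold without SE 12 h replicate 3 (0.56, adjusted p = 0.0136), with the same assumed batch as a factor (0.59) and against the mean of the 3 control groups (0.59). Without the 6 libraries with sensory ganglion genes, which leaves only replicate 3 in SE 72 h, the 72 h value was 0.47. The summed level of 7 oligodendrocyte markers was 2540 to 4548 CPM in controls and 5684 to 6018 CPM in SE 6 h (3 called up, 0 down). At 12 h it was 1451 to 4095 CPM (0 up, 1 down) and at 24 h 2955 to 6712 CPM (3 up, 0 down). At 36 h it was 2142 to 3599 CPM (0 up, 1 down) and at 72 h 2683 to 7024 CPM (2 up, 0 down). The summed level of 8 endothelial and pericyte markers was 357 to 486 CPM in controls and 469 to 637 CPM over the SE libraries. Of these 8 markers, 4, 4, 5, 3 and 3 were called up and 2, 2, 1, 1 and 0 down at the 5 times in order. Their part in the level of Slc16a1 was not tested.

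Between consecutive SE times, 1 of the 10 genes was called. Hk2 rose from 12 to 24 h, by a log2FC of 1.30 (s.e. 0.31, adjusted p = 0.013), beside 3.18% of all genes called in that comparison (9.08% by p alone, 3 of the 10). Without SE 24 h replicate 1, the highest library, this value was 1.04 with an adjusted p of 0.0709. Between 12 and 24 h, Ldha (0.64, s.e. 0.14, adjusted p = 0.0101) and Pkm (0.61, s.e. 0.13, adjusted p = 0.00978) passed the p threshold only. So did Ldhb between 6 and 12 h (-0.60, adjusted p = 0.0105), and Ldhb (0.71, s.e. 0.12, adjusted p = 0.00117) and Slc16a1 (0.72, s.e. 0.17, adjusted p = 0.0102) between 36 and 72 h. None of the 10 genes was called by edgeR from 6 to 12 h (1.34% of all genes), 24 to 36 h (0.529%) or 36 to 72 h (4.13%), where 1, 0 and 2 of them passed by p alone beside 4.53%, 0.87% and 10.3% of all genes, with 2, 2 and 7 of them at an unadjusted p under 0.05 and 0 called by DESeq2 or limma in each.

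The difference between the SE effects at different times was tested as an interaction. From 12 to 72 h the effect on Hk2 grew by 1.33 (s.e. 0.47, adjusted p = 0.0488), the only 1 of the 10 genes called there, beside 18.6% of all genes. This call was lost in 14 of the 24 fits without 1 library, with values of 0.97 to 1.38 in those 14. Between 12 and 36 h none was called by edgeR (3.38% of all genes, 3 of the 10 at an unadjusted p under 0.05, 1 called by DESeq2 and 0 by limma). The value nearest the threshold was that of Slc16a1 (-0.83, s.e. 0.24, adjusted p = 0.0552). Between 36 and 72 h none was called by edgeR either (4.81% of all genes, 5 of the 10 at an unadjusted p under 0.05, 2 called by DESeq2 and 0 by limma). There the values were -0.80 for Pgk1 (s.e. 0.25, adjusted p = 0.0658), -0.64 for Ldha (s.e. 0.20, adjusted p = 0.0691) and 0.52 for Ldhb (s.e. 0.17, adjusted p = 0.0807). The smaller effects on Ldha, Ldhb and Pgk1 at 72 h than at 36 h are therefore not shown to differ by this test.

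Between the control groups, none of the 10 genes was called by edgeR in the 30 tests, with 3 at an unadjusted p under 0.05 and 0 called by DESeq2 or limma. Over all genes, 0% were called for 36 against 12 h, 1.97% for 72 against 36 h and 0.931% for 72 against 12 h. The 3 were Pfkp for 36 against 12 h (log2FC -0.30, adjusted p = 1) and for 72 against 36 h (0.40, adjusted p = 0.0995), and Ldha for 72 against 12 h (0.42, adjusted p = 0.127).

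The surrounding pathway was described with 71 further genes in 7 lists, all of them tested. In the order 6, 12, 24, 36 and 72 h, 12, 8, 10, 8 and 6 of them were called up and 4, 8, 8, 9 and 4 down, with median log2FC of -0.00, -0.08, -0.05, -0.08 and -0.03. Over the 5 comparisons, 33 of the 71 were called at least once, 15 of them up and 18 down. Of all genes tested, 49.8% were called at least once in either direction, and the shares at each time are given above. The genes named here are those with the largest differences in each list.

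Of the 5 glucose carriers, 3 were called up and 2 down at least once. Slc2a1, which encodes GLUT1, the carrier of vessels and astrocytes, had group means of 126 to 133 CPM in controls and 322, 211, 238, 140 and 172 CPM at the 5 SE times. It rose at 6 h (log2FC 1.33, s.e. 0.17, adjusted p = 4.27e-06) and 24 h (0.89, s.e. 0.17, adjusted p = 0.0003). It also passed at 12 h (0.67, s.e. 0.22, adjusted p = 0.0196), a call that was lost without Ctr 12 h replicate 3 (0.58), Ctr 72 h replicate 2 (0.64) or SE 12 h replicate 3 (0.31). Slc2a3, the neuronal carrier GLUT3, rose at 6 h (0.87). Slc2a5, the fructose carrier GLUT5, which in brain marks microglia, held 9 to 146 counts in the controls and 0, 8 and 5 counts in SE 24 h. It fell at 6, 12, 24 and 36 h, with log2FC of -2.64, -3.26, -4.40 and -2.40 (edgeR's adjusted p = 0.000174, 8.74e-05, 2.94e-06 and 0.000866), and at 72 h, with 63, 98 and 235 counts, it was not called (0.68, adjusted p = 0.307). Slc2a4, the insulin-dependent carrier GLUT4, was called up at 72 h, with 55, 26 and 41 counts after SE and 4, 0 and 0 counts in Ctr 72 h. The mean level of Slc2a4 was 1.68 CPM in Ctr 12 h and 0.98 CPM in Ctr 36 h, but 0.113 CPM in Ctr 72 h, beside 2.58 CPM in SE 72 h. The call thus rests in part on a low control group. Ctr 72 h is also the shallowest of the groups, and no fold is given for this gene.

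Of the 15 other glycolytic enzymes, 3 were called up and 4 down at least once. Hk3, a hexokinase of myeloid cells, rose at all 5 times, with log2FC of 1.90 (s.e. 0.26), 1.76 (s.e. 0.33), 3.62 (s.e. 0.24), 3.24 (s.e. 0.33) and 3.71 (s.e. 0.39), from group means of 1.03 to 1.85 CPM to 5.74, 6.24, 19.1, 17.3 and 14.3 CPM. Its lowest Ctr 72 h library was at 0.375 CPM, near the floor, so the size of the value at 72 h is uncertain. Adpgk, an ADP-dependent glucokinase, rose at 6, 12, 24 and 36 h, by folds of 2.62, 2.93, 2.14 and 1.76. The log2FC at 36 h (0.81) lost the p threshold without any 1 of the Ctr 36 h libraries (0.80 to 0.82) or SE 36 h replicate 2 (0.50), and that at 24 h the size threshold without SE 24 h replicate 3 (0.64). Aldoc, the aldolase of astrocytes, fell at 24 h (log2FC -1.30, s.e. 0.16, adjusted p = 2.53e-06) and 36 h (-1.53, s.e. 0.19, adjusted p = 3.5e-06), while Aldoa was not called. Its libraries held 449, 473 and 311 CPM in SE 24 h and 399, 227 and 349 CPM in SE 36 h beside 903 to 1116 CPM in controls, and in SE 72 h they were back at 1016, 911 and 997 CPM. Eno3, the muscle-type enolase, fell at 6, 12 and 24 h (log2FC -1.01, -1.42 and -0.99). Its call at 36 h (-0.68) was lost without any 1 of 5 libraries (Ctr 12 h replicate 2, Ctr 36 h replicates 2 and 3, SE 36 h replicates 2 and 3), with values of -0.66 to -0.59.

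**Figure D5:**
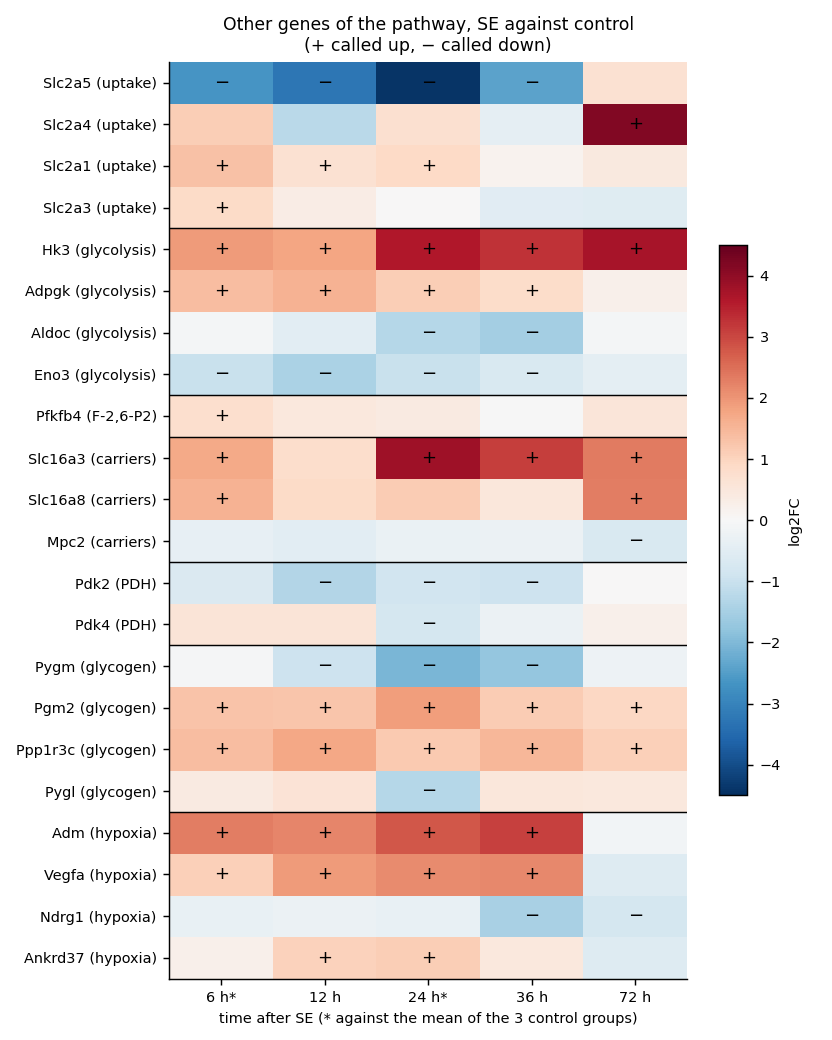
Heat map of the log2FC after SE against control (colour scale, red higher and blue lower after SE) of the named genes of the 7 pathway lists at each time, with + for called up and − for called down. Hk3, Slc16a3 and Vegfa are called up and Aldoc, Pygm and Pdk2 down at 24 and 36 h, and the colour of Slc2a4 at 72 h is a fitted value against control counts of 4, 0 and 0.

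Of the 4 enzymes that, like Pfkfb3, make or break down fructose-2,6-bisphosphate, only Pfkfb4 was called, at 6 h (log2FC 0.75). That call was lost without SE 6 h replicate 2 (0.45). Of the 7 lactate and pyruvate carriers, 2 were called up and 1 down at least once. Slc16a3 encodes MCT4, a low-affinity carrier known for lactate export. Its libraries held 1.12 to 5.67 CPM in controls, 6.63, 5.98 and 8.03 CPM in SE 6 h, 3.98, 5.93 and 5.5 CPM in SE 12 h, 35.8, 18.1 and 33.9 CPM in SE 24 h, 15.6, 9.06 and 13.4 CPM in SE 36 h and 7.69, 9.63 and 14.2 CPM in SE 72 h. Slc16a3 rose at 6 h (log2FC 1.72, s.e. 0.33, adjusted p = 0.000433), 24 h (3.80, s.e. 0.31, adjusted p = 8.34e-09), 36 h (3.12, s.e. 0.45, adjusted p = 2.74e-05) and 72 h (2.33, s.e. 0.49, adjusted p = 0.00134). At 12 h its log2FC was 0.79 (s.e. 0.42, adjusted p = 0.147). At 6 h both Slc16a3 and Slc16a1 were called up. At 24, 36 and 72 h Slc16a3 was called and Slc16a1 was not, but Slc16a1 passed by p alone at 24 h (0.45) and 72 h (0.46). The difference between the 2 genes was not tested. Slc16a8, another carrier at about 1 CPM, was called at 6 and 72 h. Without Ctr 72 h replicate 2, which held 0 counts of it, these values were 0.90 (adjusted p = 0.11) and 0.20 (adjusted p = 0.857). Mpc2, a subunit of the mitochondrial pyruvate carrier, was called down at 72 h (log2FC -0.69). That call was lost without Ctr 72 h replicate 3 (-0.59) or SE 72 h replicate 1 (-0.66), and among others against the mean of the 3 control groups (-0.45). The mean of Mpc2 was 67.8 CPM in Ctr 72 h beside 52.6 CPM in Ctr 12 h and 52.2 CPM in Ctr 36 h.

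Of the 11 genes of pyruvate dehydrogenase, which takes pyruvate into the citric acid cycle, and its regulators, 2 were called, both down and both kinases that inhibit it. Pdk2 fell at 12, 24 and 36 h (log2FC -1.32, -0.87 and -0.93, s.e. 0.20, 0.17 and 0.20). Pdk4 fell at 24 h (-0.78). Of the 13 genes of glycogen handling, 3 were called up and 6 down at least once. Pygm, the glycogen phosphorylase of muscle and astrocytes, fell at 24 h (-2.07, s.e. 0.27, adjusted p = 4.85e-06) and 36 h (-1.75, s.e. 0.30, adjusted p = 0.000151). Its call at 12 h (-0.93) was lost without Ctr 12 h replicate 2 (-0.76, adjusted p = 0.0715) or SE 12 h replicate 1 (-0.83, adjusted p = 0.0533). Ppp1r3c, which targets protein phosphatase 1 to glycogen and favours its making, rose at all 5 times (1.38, 1.73, 1.19, 1.48 and 1.08). Pgm2, a phosphoglucomutase, rose at 6, 12, 24 and 36 h (1.30, 1.25, 1.88 and 1.15), and its call at 72 h (0.93) was lost without Ctr 72 h replicate 2 (0.41, adjusted p = 0.176). Pygl, the liver-type phosphorylase, was called down at 24 h (-1.27), and not without SE 24 h replicate 2 (-1.05, adjusted p = 0.0521).

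Of the 16 genes of the hypoxia response, 3 were called up and 3 down at least once. Vegfa, the vascular growth factor, had group means of 59.9 to 97.9 CPM in controls and 153, 243, 316, 267 and 64.5 CPM at the 5 SE times. It rose at 6, 12, 24 and 36 h (log2FC 1.08, 1.90, 2.13 and 2.16, s.e. 0.20, 0.26, 0.19 and 0.26) and was not called at 72 h (-0.58, adjusted p = 0.101). Adm, the peptide adrenomedullin, rose at the same 4 times (2.32, 2.20, 2.79 and 3.08) and was at -0.12 at 72 h (adjusted p = 0.915). Ankrd37 was called up at 12 h (1.05, edgeR's adjusted p = 0.0499) and 24 h (1.09), and Ndrg1 was called down at 36 h (-1.45) and 72 h (-0.78). The call of Ankrd37 at 12 h and that of Ndrg1 at 72 h were lost in 17 and 11 of the 24 fits without 1 library, and that of Ankrd37 at 24 h without SE 24 h replicate 1 (0.86, adjusted p = 0.078). With the label range as a factor, which at 72 h separates SE from control, the log2FC at 72 h was 1.19 for Slc16a3 (adjusted p = 0.229), 0.70 for Ppp1r3c (adjusted p = 0.226), 0.38 for Pgm2 (adjusted p = 0.61) and -0.62 for Ndrg1 (adjusted p = 0.462). With the same factor the values were 0.62 for Slc2a3 and 0.46 for Pfkfb4 at 6 h, and neither was called.

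For each of the 10 genes, the genes with the most similar level over the 24 libraries were found among 8970 genes whose mean log2 CPM was 4 or more, by Pearson's r of log2 CPM. The libraries share the groups and differ in depth and composition, so r is a description. For Hk2 they were Plekhg2 (r = 0.938) and Serpina3n (r = 0.937), a marker of reactive astrocytes. For Pfkfb3 they were Fgfr1 (r = 0.961) and Chst11 (r = 0.948), and for Pfkp Cdkn1a (r = 0.868) and B4galt5 (r = 0.866). For Ldha they were Stx4a (r = 0.916) and Ctdnep1 (r = 0.879), for Ldhb Plaat3 (r = 0.905) and Abhd3 (r = 0.904), and for Slc16a1 Pals1 (r = 0.821) and Slc3a2 (r = 0.809). For Hk1 they were Hras (r = 0.858) and Atp6v1c1 (r = 0.841), for Pgk1 Rangap1 (r = 0.856) and Atp6v0b (r = 0.853), for Pkm Sdhb (r = 0.877) and B230219D22Rik (r = 0.826), and for Aldoa Acot7 (r = 0.846) and Ndufa4 (r = 0.806).

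The 10 genes lie on 8 chromosomes of GRCm39 by GENCODE M39. Hk2 is at chr6:82699740-82751469, Ldhb at chr6:142435672-142454586, Aldoa at chr7:126393822-126399923, Ldha at chr7:46490899-46505061 and Pgk1 at chrX:105230706-105247305. Hk1 is at chr10:62104621-62215687, Pfkp at chr13:6629798-6698970, Pfkfb3 at chr2:11476244-11558888, Pkm at chr9:59563364-59586663 and Slc16a1 at chr3:104545811-104565780. Pgk1, Ldha, Pkm and Slc16a1 are on the plus strand and the others on the minus strand. Pseudogenes named after the gene are annotated for Aldoa (2), Pgk1 (2), Ldha (3) and Ldhb (1), so reads shared with these copies make the counts of those 4 genes less certain.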

How the data were processed

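Polyadenylated RNA of CA1 tissue was sequenced, with 3 libraries in each of 8 groups. The authors trimmed, aligned and counted the reads with Trim Galore 0.6.6, STAR 2.7.8a on GRCm39 with GENCODE M26, SAMtools 1.10 and HTSeq 0.13.5 in its unstranded mode, merged the lanes, and deposited the counts per gene as whole numbers, not normalized. Symbols and positions were taken from GENCODE M39, which matched 18552 of the 18647 genes and not the other 95. The libraries held between 2663936 and 30133731 counts.

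Counts were scaled with TMM, reduced to 18153 genes by filterByExpr, and fitted in R 4.3.3 with edgeR 4.0.16, with group terms and 1 RUVr factor (a factor of unwanted variation taken from the residuals) over all 24 libraries. The factor was largest in Ctr 72 h, at 0.797 in replicate 2 and -0.383 and -0.374 in replicates 1 and 3. In the other groups it was at most 0.136 in size (SE 12 h replicate 1), so it mainly separates the Ctr 72 h libraries. Each p came from edgeR's quasi-likelihood test and was adjusted by Benjamini-Hochberg over the 18153 genes. Calls needed an adjusted p no higher than 0.05 and an absolute log2FC no smaller than 0.66 (1 between SE times). The script was tested on simulated data. Log2 CPM used a prior count of 2.

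The 10 genes, the 7 pathway lists and the 11 marker lists were chosen with earlier results of these data known. Of each pathway list, the called genes whose mean log2 CPM was 0 or more are named, at most 4 by largest absolute log2FC in any comparison with control. Same-numbered libraries did not deviate together (r over 0.1 in 19 of 84 pairs), so no pairing was used.

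Alternatives were no RUVr factor, DESeq2 1.42.0, limma 3.58.1 (voom), DESeq2's size factors in edgeR, scaling by library size, other filters and thresholds, the range of the label numbers as an assumed batch, the replicate number as a block, the mean of the 3 control groups at every time, the compared groups only, and each library left out in turn. A score of the sensory ganglion genes as covariate instead of the RUVr factor and the omission of the 6 libraries with these genes were added after the data were seen. That omission leaves only replicate 3 in SE 72 h. The promoter window of Ldhb is not reported here.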

Additional observations from a re-analysis of the deposited data

Results flagged for a closer look

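The SE effect on Hk2 was larger at 72 h than at 12 h by 1.33 on the log2 scale, as a test of the difference itself (the interaction term) found with an adjusted p of 0.0488 (edgeR's quasi-likelihood test, Benjamini-Hochberg adjusted, s.e. 0.47). Its log2FC was 1.31 at 12 h and 2.64 at 72 h, with all 3 SE libraries above all 3 control libraries at both times. The lowest of the controls at 72 h was 1.87 CPM, or 5 counts. The summed level of the microglia markers was 328 to 476 CPM in SE 12 h and 1693 to 2434 CPM in SE 72 h, and its part in the difference was not tested. The call is near the threshold: it was lost in 14 of the 24 fits without 1 library (0.97 to 1.38), and among others with no RUVr factor (1.18, adjusted p = 0.119) and with limma-voom (1.21, adjusted p = 0.176).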

How the results depend on the processing

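Of the 50 values of the 10 genes after SE against control, 18 were called. Of these, 12 kept their call without each library and in every alternative that kept the thresholds (Hk2 and Pfkfb3 at all 5 times, Ldhb at 36 h and Slc16a1 at 6 h, with Hk2 not tested where at least 10 counts in every library were required), and 6 lost it at least once. Of the 32 not called, Ldha and Pgk1 at 36 h gained it at least once. No called value changed sign. With the label number range as an added factor, the log2FC at 24 h was 0.35 for Pgk1 (edgeR's adjusted p = 0.0948) and 0.60 for Ldha, and that of Slc16a1 at 12 h was 0.59. At 72 h no range held both SE and control libraries, and the range of the 3 SE 24 h libraries held no control library, so range and SE cannot be told apart within these times. With library size only, the median log2FC of all genes was 0.13 at 36 h and 0.14 at 72 h, and at 36 h Ldha (0.77) and Pgk1 (0.68) passed.

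With no size threshold the genes called were 5 at 12 h, 4 at 72 h, 1 from 6 to 12 h, 3 from 12 to 24 h and 2 from 36 to 72 h. With a threshold of 1 against control and 0.66 between SE times they were 2 at 24 h, 2 at 36 h and 2 from 36 to 72 h. With at least 10 counts in every library, which left 11913 genes and removed Hk2, they were 1 at 72 h and 0 from 12 to 24 h, and with the compared groups only 0 from 12 to 24 h. For the interaction of 12 and 36 h, 1 gene was called with DESeq2, at least 10 counts in every library, the compared groups only or without the 6 libraries with sensory ganglion genes. For 36 and 72 h, 2 were called with DESeq2, 2 with library size only, 2 with the compared groups only and 1 with at least 10 counts in every library. For 12 and 72 h, 0 were called with no RUVr factor, limma-voom, DESeq2's size factors, library size only, at least 10 counts in every library, the label ranges, the compared groups only or the sensory ganglion score, and 1 in the main analysis. Except for the removal of Hk2, the cause was not tested.

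Leaving out each library in turn gave 2 to 3 genes called at 12 h, 3 to 6 at 36 h, 2 to 2 at 72 h, 3 to 3 at 6 h, 5 to 6 at 24 h and 0 to 1 from 12 to 24 h. It gave 0 to 1 in each of the 3 interactions and 0 to 0 from 6 to 12 h, 24 to 36 h, 36 to 72 h and between controls. The Hk2 interaction was kept only without Ctr 12 h replicate 1, Ctr 72 h replicate 2, SE 6 h replicates 1 or 3, SE 12 h replicate 1, SE 24 h replicates 1 or 3, SE 36 h replicates 2 or 3, or SE 72 h replicate 1. With the replicate number as a block, 1 gene was called in the interaction of 12 and 36 h (Slc16a1, -0.82) and 1 in that of 36 and 72 h (Pgk1, -0.79), and no other call of the 10 genes changed. Of the named pathway genes, Slc2a1 (0.65) and Ankrd37 (1.08) at 12 h and Slc16a8 (2.10) and Ndrg1 (-0.76) at 72 h lost their call under the block. Of 24 libraries, 7 correlated best with their own number. Uncalled differences that changed sign were counted as unchanged. The depth of Ctr 72 h limits Hk2, at 5 counts in 1 library.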
